A study of Mus musculus with 172 samples.

Results

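The 10 genes described here encode the main parts of the first basement membrane of the mouse embryo and were taken by symbol from the 49671 genes of the count files. They are the laminin chains Lama1, Lamb1 and Lamc1, the collagen IV chains Col4a1 and Col4a2, the nidogens Nid1 and Nid2, perlecan (Hspg2), Sparc and dystroglycan (Dag1), and all 10 were found. RNA was measured by Smart-seq2, a full-length single-cell method, in 172 cells of the inner cell mass (ICM) of blastocysts from matings of mice heterozygous for a null allele of Pou5f1, the gene of OCT4, on mixed genetic backgrounds. WT/HET embryos were wild type or heterozygous and MUT embryos were OCT4 null. At E3.5 there were 58 WT/HET cells from 7 embryos (5 WT and 2 HET) and 29 MUT cells from 4 embryos. At E4.5 there were 37 epiblast (EPI) and 29 primitive endoderm (PrE) cells from the same 6 WT/HET embryos (2 WT and 4 HET) and 19 MUT cells from 2 embryos. ICMs had been freed of trophectoderm (TE) by immunosurgery, and the EPI and PrE names were given by the study from these same transcriptomes, so every comparison with EPI or PrE describes assigned classes and is no separate test of them.

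A basement membrane is a thin sheet of extracellular matrix on which an epithelium rests. A laminin trimer of an α, a β and a γ chain forms the first network at the cell surface, collagen IV trimers form a second, and nidogens and the heparan sulfate proteoglycan perlecan link the networks. SPARC binds collagen IV and acts in its deposition, and dystroglycan is a cell-surface receptor for laminin. In the blastocyst the PrE lays such a sheet beneath the EPI, and its parietal endoderm descendants secrete the thick Reichert's membrane.

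Col4a1 and Col4a2 lie head to head on chromosome 8, a layout shown here because both differed in the same direction in each comparison below. Col4a1 (ENSMUSG00000031502) was at chr8:11198423-11312826 on the minus strand and Col4a2 (ENSMUSG00000031503) at chr8:11312805-11449287 on the plus strand (GRCm38). Their first exons overlap by 22 bases at chr8:11312805-11312826, given on the plus strand with the letters GGGCGG (a GC box core) in capitals.
Col4a2 and Col4a1: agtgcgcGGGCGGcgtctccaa
The other members lie apart. Lama1 was at chr17:67697259-67822647 (plus strand), Lamb1 at chr12:31265234-31329644 (plus), Lamc1 at chr1:153218922-153332786 (minus), Nid1 at chr13:13437551-13512269 (plus) and Nid2 at chr14:19751265-19811787 (plus). Hspg2 was at chr4:137468769-137570630 (plus), Sparc at chr11:55394500-55423183 (minus) and Dag1 at chr9:108204634-108263958 (minus). Counts were summed over the exons of each gene, from untranslated and coding parts together.

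RefSeq promoter windows (GRCm38.p6) were at hand for 7 of the 10 members, in 8 windows of 250 bases before a transcript start, and were not given for Lama1, Lamc1 and Nid2. The windows of Lamb1 and Hspg2, both higher in PrE than in EPI, are shown up to the first annotated exon, at chr12:31265043-31265233 and chr4:137468553-137468768 on the plus strand, with GC box cores (GGGCGG or its reverse complement CCGCCC) in capitals.
Lamb1: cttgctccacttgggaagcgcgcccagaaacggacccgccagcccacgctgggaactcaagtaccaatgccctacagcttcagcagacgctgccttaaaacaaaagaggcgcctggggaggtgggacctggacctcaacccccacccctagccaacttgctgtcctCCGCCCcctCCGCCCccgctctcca
Hspg2: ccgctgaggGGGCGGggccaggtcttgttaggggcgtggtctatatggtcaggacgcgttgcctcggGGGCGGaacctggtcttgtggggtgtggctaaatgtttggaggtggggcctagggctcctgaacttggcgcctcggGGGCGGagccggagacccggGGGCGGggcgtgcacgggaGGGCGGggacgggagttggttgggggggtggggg
A GC box core was present in the windows of 5 of the 7 members (Hspg2, Col4a2, Dag1, Lamb1 and Nid1) and in 32.7% of 32817 promoter windows of the same length. The core bound by GATA factors, searched as AGATAA on both strands, was in 0 of the 7 members' windows and in 9.99% of all windows. The core bound by SOX factors, searched as ACAAT on both strands, was likewise in 0 of the 7 and in 27.7% of all. These are matches of letters in 1 short window per start and say nothing of binding.

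The counts per cell had medians of 1318327 to 1772045 over the 5 groups, and 9 cells held under 0.5 of the median of their stage. Levels below are gene counts scaled to a common library total (CPM) of the summed cells of an embryo, and the embryo is the replicate throughout. Pou5f1, the deleted gene, was at 192 to 428 CPM in E3.5 WT/HET embryos, 2.65 to 4.61 in E3.5 MUT, 72.3 to 187 in E4.5 WT/HET and 0 in both E4.5 MUT embryos. Of 11 PrE markers all were counted in PrE cells, while in E4.5 MUT cells Sox7, Foxa2 and Foxq1 were at 0 and the summed level of the list was 436 and 621 CPM against 1980 to 6364 in PrE. The summed level of 12 TE markers was 4867 and 5362 CPM in the E4.5 MUT embryos, with all 12 counted, against 85.6 to 555 in PrE and 85.0 to 242 in EPI. At E3.5 it was 722 to 1328 CPM in MUT and 227 to 894 in WT/HET. The part of these TE markers in the results was not tested. Each stage was on a plate of its own, so stage and plate cannot be told apart.

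**Figure D1:**
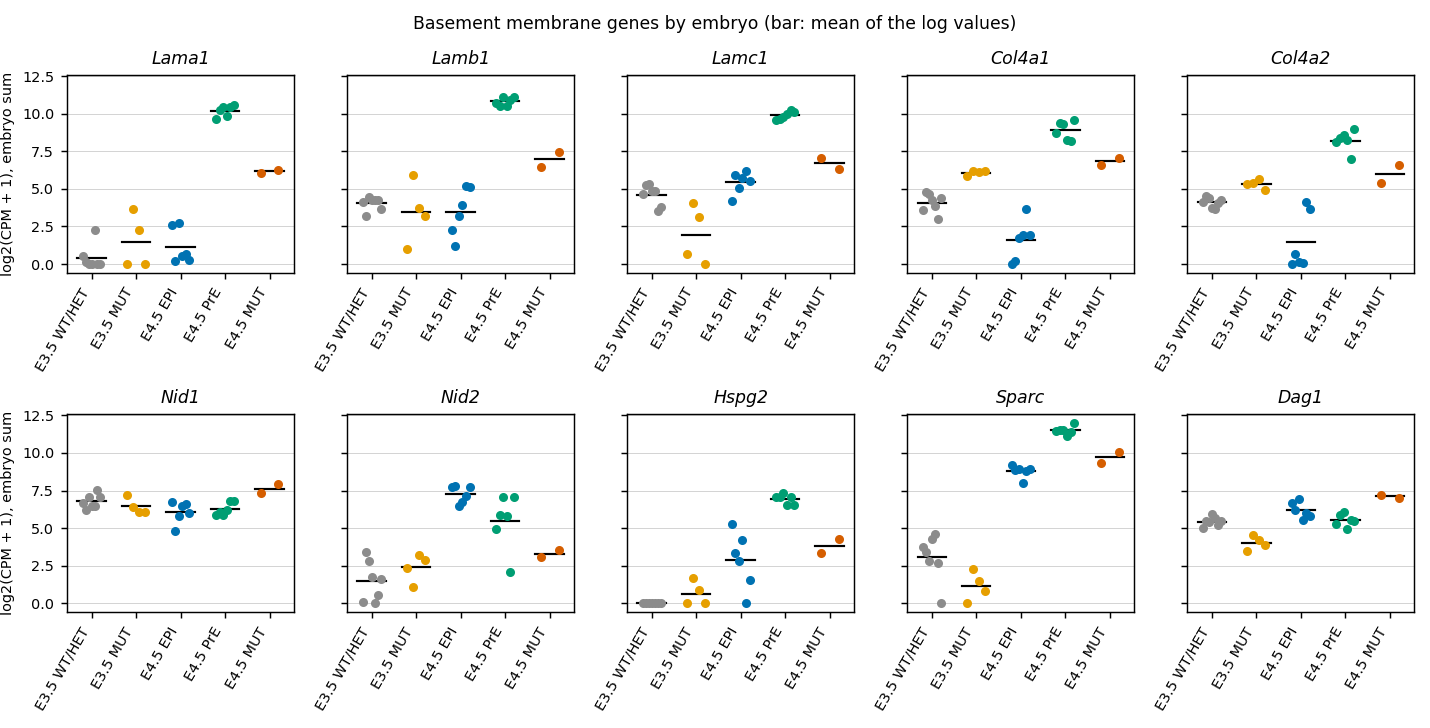
Level of each of the 10 genes in every embryo, as log2(CPM + 1) of the summed cells, with 1 point per embryo and a bar at the mean of the log values. The 6 PrE points of Lama1, Lamb1, Lamc1, Col4a1, Col4a2, Hspg2 and Sparc lie above every point of the other groups, which those of Nid1, Nid2 and Dag1 do not.

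The 10 genes together took 0.811% ± 0.146 (SD, n = 6) of all gene counts in PrE and 0.0853% ± 0.0160 (n = 6) in EPI. They took 0.139% and 0.204% in the 2 E4.5 MUT embryos. At E3.5 their share was 0.0247% ± 0.0027 (n = 7) in WT/HET and 0.0250% ± 0.0048 (n = 4) in MUT, a difference smaller than the spread between embryos. The summed share was therefore small in the early ICM of both genotypes and large in PrE. Nid1 and Dag1 departed from the sum. In E3.5 WT/HET their means were 145% and 92.1% of the PrE means, and in E3.5 MUT 115% and 33.9%. In the E4.5 MUT embryos the share of the 10 genes lay above the EPI range of 0.0583% to 0.108%. It lay below the PrE range of 0.648% to 1.06%.

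PrE exceeded EPI in 7 of the 10 genes by edgeR's quasi-likelihood test with Benjamini-Hochberg adjustment over all genes tested, the test used for every adjusted p below. The 7 were the laminin chains, both collagen IV chains, Hspg2 and Sparc, beside 5.2% of 9762 genes called higher and 4.61% called lower. In each of the 7, every PrE embryo was above every EPI embryo. The median log2 difference of the 10 was 3.905 and that of all tested genes -0.03. In whole WT/HET ICMs, EPI and PrE cells summed, 8 of 10 members rose from E3.5 to E4.5 and 1, Nid1, fell, beside 18.4% and 17.3% of 11860 genes. The log2 change was 9.44 ± 0.88 for Lama1, 7.10 ± 0.71 for Sparc, 5.56 ± 0.30 for Lamb1, 5.15 ± 0.81 for Nid2, 3.98 ± 0.29 for Lamc1, 3.71 ± 0.43 for Col4a1 and 3.10 ± 0.34 for Col4a2, and for Nid1 it was -0.75 ± 0.23 (adjusted p = 0.0199). Weighting cells equally lost the Col4a1 and Col4a2 calls (adjusted p = 0.162 and 0.243). In E4.5 MUT embryos 2 members were higher than in EPI and 1 was lower (2.3% and 2.62% of 12953 genes), and 2 were higher than in PrE and 6 lower (1.74% and 2.07% of 12246 genes). At E3.5 only 8 of the 10 had counts enough to be tested, and of these 2 were higher in MUT and 1 lower (3.2% and 2.98% of 12075 genes). Within MUT, 2 rose from E3.5 to E4.5, beside 3.08% of 12714 genes that rose and 3.69% that fell.

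**Figure D2:**
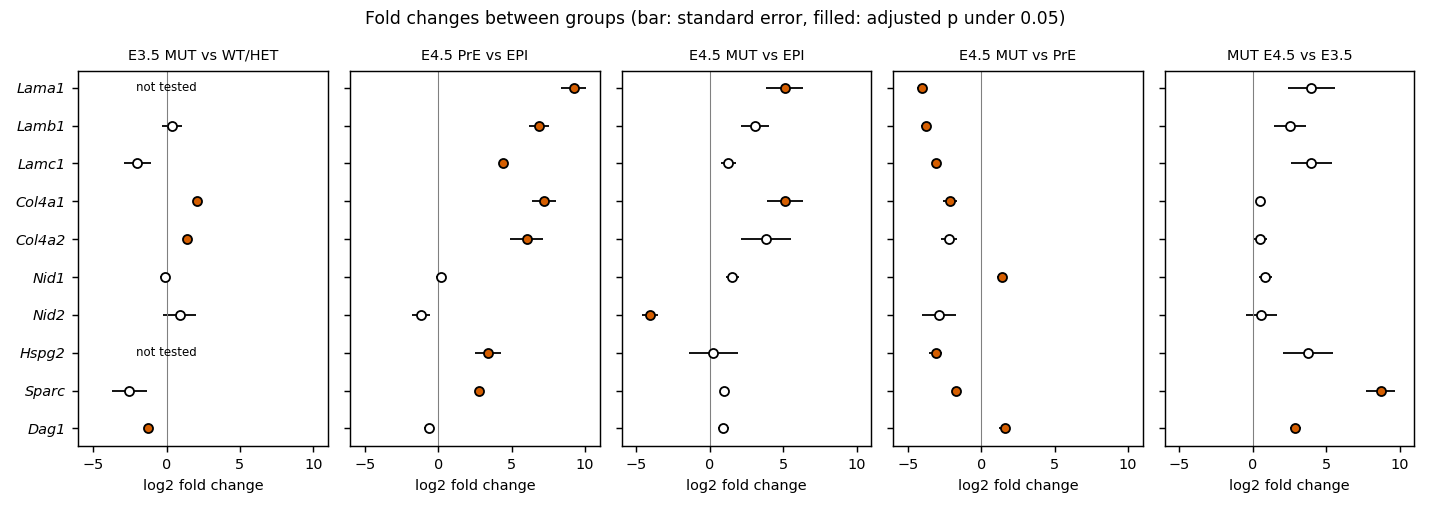
Fitted log2 fold change of each gene in 5 comparisons, with its standard error as a bar and a filled point where the adjusted p was under 0.05. PrE exceeds EPI in 7 genes, MUT lies below PrE in 6 of those 7 by the test, and Nid1 and Dag1 lie on the opposite side.

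Lama1, the α chain of the laminin trimer of early basement membranes, was at 5.62 CPM or less in every E3.5 WT/HET and EPI embryo. In E3.5 WT/HET embryos its lowest, median and highest levels were 0, 0 and 3.74 CPM, and the 4 E3.5 MUT embryos had 0, 11.7, 3.73 and 0 CPM, too few for a test. EPI had 0.141, 0.509 and 5.62 CPM and PrE 788, 1291 and 1544. All PrE embryos were thus far above all EPI embryos, with a log2 difference of 9.25 ± 0.85 (SE, adjusted p = 8.47e-06). The 2 E4.5 MUT embryos had 65.0 and 76.1 CPM, above every EPI and below every PrE embryo. Their level was 5.83% of the PrE mean, a log2 difference of -4.04 ± 0.31 (adjusted p = 0.000204). Against EPI it was 5.12 ± 1.26 higher (adjusted p = 0.0491), a call lost without any of embryos 2, 3, 5, 6, 7 or 8 (adjusted p = 0.0689 to 0.194).

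Lamb1, the β chain, differed from Lama1 in being present at E3.5. E3.5 WT/HET embryos had 8.20, 18.1 and 21.2 CPM (lowest, median, highest). The 4 E3.5 MUT embryos had 1.01, 58.5, 12.4 and 8.01 CPM, with embryo 12 above and embryo 10 below all controls, and the groups did not differ by the test (log2 0.39 ± 0.66, adjusted p = 0.802). Without embryo 12 the direction turned, to -1.04. At E4.5 the EPI embryos had 1.27, 11.2 and 35.6 CPM and the PrE embryos 1476, 1816 and 2247, a log2 difference of 6.86 ± 0.69 (adjusted p = 2.06e-05). At E4.5 MUT had 86.6 and 176 CPM, between both classes. They lay below PrE (log2 -3.75 ± 0.34, adjusted p = 0.000409), while the difference from EPI, 3.08 ± 0.93, missed the threshold (adjusted p = 0.088).

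Lamc1, the γ chain, had the highest mean FPKM of the 3 member chains in EPI. E3.5 WT/HET embryos had 10.4, 27.4 and 39.2 CPM, and the E3.5 MUT embryos 0.563, 15.5, 7.80 and 0. The MUT mean was lower, but the difference missed the threshold (log2 -1.98 ± 0.90, adjusted p = 0.226). With each cell weighted equally it passed (adjusted p = 0.0218 by limma). EPI had 16.9, 48.1 and 71.3 CPM and PrE 769.97, 928 and 1229.8, a log2 difference of 4.42 ± 0.30 (adjusted p = 7.52e-07). MUT at E4.5 had 133 and 79.9 CPM, just above the EPI range and below PrE (log2 -3.10 ± 0.28, adjusted p = 0.000393).

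The 3 chains can join in a trimer, so their balance per length was compared in FPKM, which is CPM divided by exon length in kilobases. In PrE the mean FPKM was 185 ± 33.7 for Lamb1, 125 ± 30.6 for Lama1 and 115 ± 21.7 for Lamc1 (SD, n = 6). Lamb1 exceeded Lama1 in 6 of 6 embryos, while Lama1 exceeded Lamc1 in 3 of 6. In EPI Lama1 was the scarcest of the 3, at 0.208 ± 0.269 FPKM beside 5.59 ± 2.35 for Lamc1. Lama1 is not the only α chain counted. Lama5, an α chain outside the members, had means of 50.7 CPM in EPI, 24.5 in PrE and 82.8 in E4.5 MUT. At E3.5 its mean was 53.8 CPM in WT/HET and 15.3 in MUT. In the E4.5 MUT embryos the FPKM ratio of Lama1 to Lamc1 was 0.417 and 0.814, against 0.800 to 1.40 over the PrE embryos and 0.00201 to 0.259 over the EPI embryos. All 3 chains reached 10 CPM together in 29 of 29 PrE cells, 6 of 19 E4.5 MUT cells, 1 of 37 EPI cells, 2 of 29 E3.5 MUT cells and 0 of 58 E3.5 WT/HET cells.

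Col4a1 and Col4a2, whose products join in the main collagen IV trimer, were higher in OCT4-null ICMs already at E3.5. E3.5 WT/HET embryos had 7.03, 18.6 and 26.9 CPM of Col4a1, and the 4 MUT embryos 55.6, 71.4, 69.01 and 71.3. Every MUT embryo was above every control, with a log2 difference of 2.10 ± 0.30 (adjusted p = 0.00268). For Col4a2 the controls had 11.7, 16.4 and 22.3 CPM and the MUT embryos 39.6, 40.1, 49.7 and 29.9, again without overlap (1.41 ± 0.24, adjusted p = 0.00551). Both calls held in each of 18 alternative fits, the 11 that left out an embryo included. Col4a1 had a count in 29 of 29 MUT cells and in 52 of 58 control cells, and its median over cells was 70.0 CPM against 15.8. Both chains reached 10 CPM in 27 of 29 MUT and 25 of 58 control cells, so the higher level was spread over the MUT cells.

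By E4.5 the collagen IV chains had parted between the classes. EPI had 0, 2.52 and 11.4 CPM of Col4a1 and PrE 288, 521 and 772, a log2 difference of 7.22 ± 0.81 (adjusted p = 5.66e-05). EPI had 0, 0.324 and 16.6 CPM of Col4a2 and PrE 123, 317 and 497, a difference of 6.02 ± 1.15 (adjusted p = 0.00329). The EPI mean of Col4a1, 3.24 CPM, was below the E3.5 control mean of 17.4, and the PrE mean of 511 far above it. Each chain was counted in 10 of 37 EPI cells and in all 29 PrE cells. The E4.5 MUT embryos had 95.5 and 131 CPM of Col4a1 and 41.7 and 93.6 of Col4a2, above all EPI and below all PrE embryos. Against their own E3.5 level these were log2 changes of 0.52 ± 0.30 and 0.52 ± 0.44 (adjusted p = 0.305 and 0.489), with a fall in place of a rise when cells were weighted equally (-0.53 and -1.43).

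Col4a1 in E4.5 MUT embryos was 5.12 ± 1.21 above EPI on the log2 scale (adjusted p = 0.0424) and below PrE (-2.13 ± 0.47, adjusted p = 0.0396). The first call was lost without embryo 2, 3, 4, 5, 7 or 8 (adjusted p = 0.052 to 0.188) and the second without embryo 1, 2, 3, 4, 7 or 8 (0.0604 to 0.265). Col4a2 missed the threshold in both directions (adjusted p = 0.265 and 0.0626) and passed against PrE without embryo 6 (0.0137). The ratio of Col4a1 to Col4a2 in FPKM was 1.49 ± 0.40 in PrE (SD, n = 6), 1.25 and 2.03 in the E4.5 MUT embryos, 1.54 ± 0.41 in E3.5 MUT (n = 4) and 0.933 ± 0.324 in E3.5 WT/HET (n = 7). The first exons shared by the pair hold 22 bases and the counting used no strand, so reads within them cannot be assigned to one gene.

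In the main fit the MUT effect on collagen IV differed between the stages. In a model over the whole-ICM sums of both stages, the MUT effect at E4.5 less that at E3.5 was -3.20 ± 0.72 for Col4a1 (adjusted p = 0.0129) and -2.58 ± 0.62 for Col4a2 (adjusted p = 0.0193), on the log2 scale. In all, 4 members differed between the stages, 1 higher (Dag1) and 3 lower (with Hspg2), beside 2.71% and 2.75% of 16410 genes. With the WT embryos as the only controls, only Dag1 of these 4 was called. Without embryo 3 the adjusted p of Col4a2 was 0.146, and without embryo 3 or 8 that of Col4a1 was 0.0507 to 0.0971. At E4.5 the comparison behind it set MUT against whole WT/HET ICMs, in which Col4a1 was at 60.5 to 432 CPM. These controls overlapped the MUT embryos (log2 -1.08 ± 0.64, adjusted p = 0.355). That Col4a1 difference turned positive with WT controls alone and with cells weighted equally.

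The nidogens, which bridge laminin and collagen IV, did not follow the other matrix genes. Nid1 had the highest level per length of the 10 at E3.5, at 16.4 ± 5.44 FPKM in WT/HET (n = 7) and 13.1 ± 5.33 in MUT (n = 4). In CPM the controls had 71.2, 101 and 181 and the MUT embryos 145, 84.3, 67.7 and 65.9, which overlapped (log2 -0.13 ± 0.32, adjusted p = 0.868). EPI had 26.7, 76.2 and 105 CPM and PrE 56.9, 68.9 and 111, which overlapped too (0.16 ± 0.32, adjusted p = 0.86). The classes furthest apart in laminin and collagen IV thus overlapped in Nid1.

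The E4.5 MUT embryos had 157 and 242 CPM of Nid1, above every EPI and PrE embryo. The log2 difference was 1.41 ± 0.33 against PrE (adjusted p = 0.0467), 1.53 ± 0.44 against EPI (adjusted p = 0.076) and 1.47 ± 0.28 against whole WT/HET ICMs (adjusted p = 0.0136). The call against PrE was lost without embryo 1, 2, 3, 4, 5 or 8 (adjusted p = 0.0776 to 0.312), and that against whole ICMs without embryo 8 (0.119). Nid1 was counted in 17 of 19 MUT cells with a median of 178 CPM, against medians of 44.0 in EPI and 69.6 in PrE cells. It shares 143 exon bases with an antisense gene, in which reads cannot be told apart.

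Nid2 had its highest levels in EPI. It was scarce at E3.5, at 0, 2.09 and 9.82 CPM in WT/HET and 4.16, 1.13, 8.29 and 6.41 in MUT embryos (log2 0.90 ± 1.11, adjusted p = 0.713). At E4.5 EPI had 87.1, 175 and 225 CPM and PrE 3.29, 55.6 and 136, and the classes overlapped (-1.16 ± 0.59, adjusted p = 0.283). The E4.5 MUT embryos had 7.41 and 10.6 CPM, below every EPI embryo (log2 -4.08 ± 0.55, adjusted p = 0.00299) and lower than whole WT/HET ICMs (-3.64 ± 0.41, adjusted p = 0.00136). Both calls held in 8 of 8 fits that left out an embryo and were lost with the 2 WT embryos as the only controls (adjusted p = 0.0727 and 0.0851). Against PrE the difference missed the threshold (-2.88 ± 1.18, adjusted p = 0.258). Nid2 was counted in 35 of 37 EPI, 26 of 29 PrE and 4 of 19 MUT cells. It shares 437 exon bases with Rtraf on the opposite strand, in which reads of the pair cannot be told apart.

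Nid1 was above Nid2 in the MUT embryos and below it in EPI, while PrE spanned both. The FPKM ratio of Nid1 to Nid2 was 15.8 and 16.96 in the E4.5 MUT embryos and ran from 6.08 to 55.5 at E3.5 in MUT. It ran from 0.0884 to 0.617 over EPI and from 0.315 to 25.1 over PrE. Both nidogens reached 10 CPM in 24 of 37 EPI, 18 of 29 PrE and 3 of 19 E4.5 MUT cells, while Nid1 alone did in 12 of the 19 MUT cells, 2 of 37 EPI cells and 3 of 29 PrE cells. At E3.5 Nid1 alone did in 48 of 58 WT/HET and 21 of 29 MUT cells.

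Hspg2, the core protein of perlecan, had 0 counts in 58 of 58 E3.5 WT/HET cells, which allows a share of cells with a count of up to 5.17% (3 counts of the total, a limit that does not cover cells in which the gene's RNA was missed), and counts in 2 of 29 E3.5 MUT cells. EPI had 0, 7.67 and 38.6 CPM and PrE 90.4, 131 and 157, a log2 difference of 3.39 ± 0.89 (adjusted p = 0.0266). That call was lost without embryo 2, 4, 5 or 7 (adjusted p = 0.0627 to 0.0993). Whole WT/HET ICMs at E4.5 had 23.9 to 99.2 CPM. Their mean of 61.7 CPM was at least 1805-fold the E3.5 level, with the floor of 3 counts over the E3.5 group. In E4.5 MUT it was 9.17 and 18.3 CPM, within the EPI range and below every PrE embryo (log2 -3.10 ± 0.46, adjusted p = 0.00606, and 0.0673 without embryo 3). The counts came from 5 of 19 MUT cells, and 29 of 29 PrE cells had them. The stage difference of the MUT effect, -5.01 ± 1.09 (adjusted p = 0.0185), rests on a control group at 0 and on a prior count, and was lost without embryo 3 or 8 (adjusted p = 0.0573 to 0.0868).

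Sparc was the most abundant member at E4.5 in all 3 classes. At E3.5 it had 0, 9.59 and 23.1 CPM in WT/HET and 0, 3.82, 1.82 and 0.739 in MUT embryos (log2 -2.53 ± 1.19, adjusted p = 0.24). EPI had 256, 476 and 592 CPM and PrE 2235, 2901 and 4096, a difference of 2.77 ± 0.20 (adjusted p = 1.08e-06). The E4.5 MUT embryos had 650.1 and 1079 CPM, above every EPI embryo and below every PrE embryo. Against PrE the log2 difference was -1.73 ± 0.28 (adjusted p = 0.00862, and 0.0936 without embryo 3), and against EPI it was 1.00 ± 0.29 (adjusted p = 0.0779). Within MUT, Sparc rose by 8.71 ± 0.99 from E3.5 to E4.5 (adjusted p = 0.0105), a call kept in all 12 alternative fits. It was counted in all 37 EPI, all 29 PrE and all 19 MUT cells at E4.5 but at E3.5 in 34 of 58 WT/HET cells and 6 of 29 MUT cells.

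Among the 7 genes higher in PrE, Sparc had the largest share of its PrE level in E4.5 MUT embryos, 29.1%. Col4a1 had 22.2%, Col4a2 21.3%, Lamc1 11.2%, Hspg2 11.2%, Lamb1 7.16% and Lama1 5.83% of the PrE mean in CPM. Lama1 and Lamb1 had the smallest shares. EPI means were 15.3% of the PrE mean for Sparc, 9.90% for Hspg2 and 4.84% for Lamc1. They were 1.52% for Col4a2, 0.885% for Lamb1, 0.634% for Col4a1 and 0.166% for Lama1. These shares are a description over 2 MUT embryos and were not tested against each other.

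Dag1, the laminin receptor, changed direction between the stages. At E3.5 the WT/HET embryos had 30.7, 43.0 and 59.1 CPM and the MUT embryos 10.4, 22.4, 17.2 and 13.7, all below all controls (log2 -1.30 ± 0.24, adjusted p = 0.00832). At E4.5 EPI had 45.3, 67.9 and 122 CPM and PrE 29.1, 44.3 and 66.8, which overlapped (-0.64 ± 0.32, adjusted p = 0.275). The E4.5 MUT embryos had 148 and 130.3 CPM, above all of these. The log2 difference was 1.61 ± 0.37 against PrE (adjusted p = 0.0455), 0.93 ± 0.39 against EPI (adjusted p = 0.233) and 1.21 ± 0.32 against whole ICMs (adjusted p = 0.0492). The call against PrE was lost without any 1 of the 8 embryos (adjusted p = 0.0533 to 0.265) and that against whole ICMs without any but embryo 4 (0.0657 to 0.212). The E3.5 call held in all 18 alternative fits.

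The rise of Dag1 within MUT from E3.5 to E4.5 was 2.90 ± 0.37 on the log2 scale (adjusted p = 0.0114, and 0.0645 without embryo 3). In whole WT/HET ICMs the change was 0.40 ± 0.21 (adjusted p = 0.152). The difference between these changes was 2.49 ± 0.39 (adjusted p = 0.00082) and was called in all 26 alternative fits. One MUT cell held 19.9% of the group's Dag1 counts at E4.5, and 16 of 19 MUT cells reached 10 CPM.

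**Figure D3:**
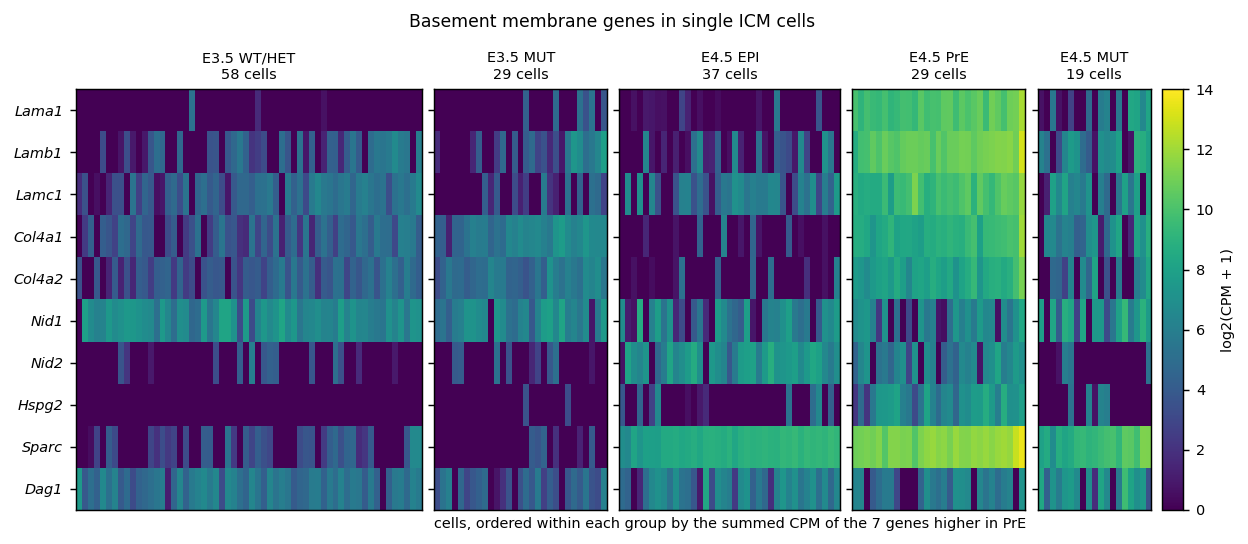
Each column is 1 cell, ordered within its group by the summed CPM of the 7 genes higher in PrE, and the colour is log2(CPM + 1) of each gene. PrE cells hold 6 or all of the 7 genes at 10 CPM or more, EPI cells hold mainly Sparc and Nid2 with Nid1, Lamc1 and Dag1, and E4.5 MUT cells hold a patchwork.

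The 7 genes were taken because they were higher in PrE, so their counts per cell in PrE and EPI are a description that this choice largely fixes. Of 29 PrE cells, 26 had all 7 genes at 10 CPM or more and 3 had 6. Of 19 E4.5 MUT cells, 2 had all 7, 4 had 6, 4 had 5, 3 had 4, 4 had 3 and 2 had 2. EPI cells had 1 to 4 of the 7. The summed level of the 7 genes was 330 to 4087 CPM over MUT cells, with a median of 1055, and 128 to 870 over EPI cells, with a median of 536. In PrE cells it was 4415 to 35586 CPM with a median of 7311, so 0 of 19 MUT cells reached the lowest PrE cell. The highest PrE cell was also among the shallow ones.

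**Figure D4:**
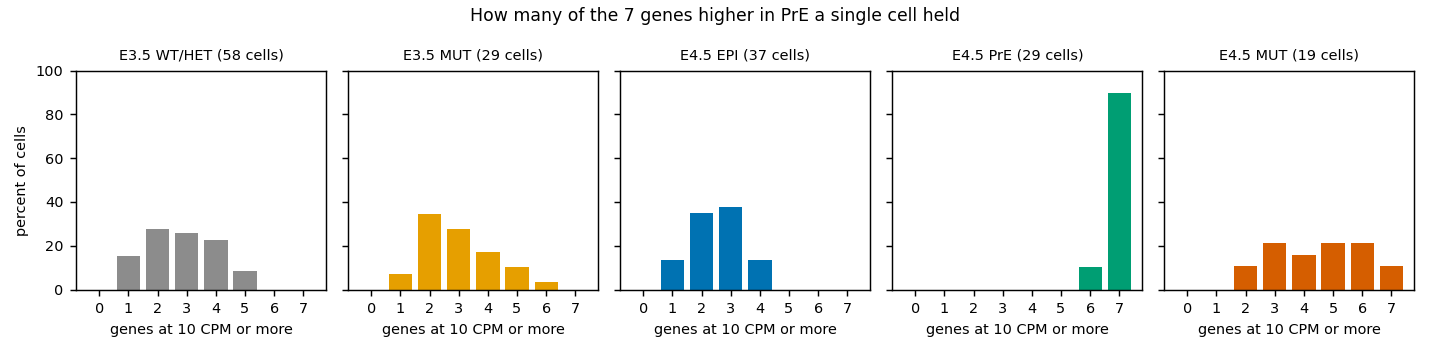
Percent of the cells of each group by the number of the 7 genes (Lama1, Lamb1, Lamc1, Col4a1, Col4a2, Hspg2 and Sparc) at 10 CPM or more. PrE cells stand at 6 and 7 genes, EPI cells at 1 to 4 and E4.5 MUT cells spread from 2 to 7.

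The MUT cell with the highest sum, 4087 CPM, belonged to embryo 8 and was the only one of the 19 with counts of both Gata4 and Sox17, PrE transcription factors, at 13.5 and 127 CPM. It had 300.2 CPM of Lama1, 246 of Lamb1, 333 of Lamc1, 430.2 of Col4a1 and 2454 of Sparc. Without it, a choice made after seeing the data, embryo 8 had 36.9 CPM of Lama1 in place of 76.1, 35.6 of Lamc1 in place of 79.9 and 79.3 of Col4a1 in place of 131. Lamb1 was then 164 CPM and Sparc 838 in that embryo. These values still lay above the EPI range for Lama1, Lamb1, Col4a1 and Sparc, and within it for Lamc1.

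Correlations across the cells of a class are given as a description. The 7 genes were chosen as higher in PrE, and several were at or near 0 in the other classes, so r is not comparable between classes. Over the 21 pairs of the 7 genes the median Pearson r of log2(CPM + 1) was 0.580 in the 29 PrE cells, 0.150 in the 19 E4.5 MUT cells, 0.0274 in the 37 EPI cells and 0.262 in the 29 E3.5 MUT cells. In the 58 E3.5 WT/HET cells it was 0.0275 over the 15 pairs that gave a value. The highest r in PrE was 0.760 between Col4a1 and Col4a2, followed by 0.755 between Col4a1 and Sparc and 0.721 between Lamb1 and Lamc1. In E4.5 MUT cells Col4a1 and Col4a2 again had the highest r, 0.685. Cells share their embryo and differ in depth, which enters every r.

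Whole WT/HET ICMs differed in the mix of cells sampled and in these genes. PrE cells gave 17.7% of the gene counts of embryo 6, 38.8% of embryo 7, 38.99% of embryo 5, 45.4% of embryo 4, 65.2% of embryo 2 and 65.4% of embryo 1. The 10 genes took 0.213%, 0.468%, 0.288%, 0.445%, 0.535% and 0.499% of their counts, in that order. Embryos 5 and 6, with the lowest shares, were WT, and embryos 1, 2, 4 and 7 were HET. At similar PrE content WT embryo 5 had 0.288% and HET embryo 7 had 0.468%. The parts of genotype and of cell mix were not tested. The 2 E4.5 MUT embryos, at 0.139% and 0.204%, lay below the control with 2 PrE cells among its 9. Against whole ICMs 4 members were lower in E4.5 MUT (Lama1, Lamb1, Lamc1 and Nid2) and 2 higher (Nid1 and Dag1), beside 4.27% and 3.1% of 14105 genes. The log2 difference was -2.86 ± 0.47 for Lama1 (adjusted p = 0.0074), -2.61 ± 0.49 for Lamb1 (0.0136) and -1.99 ± 0.32 for Lamc1 (0.0074). Without embryo 3 the adjusted p of Lama1 was 0.06 and that of Lamb1 0.0952. Fewer cells of a type and less RNA per cell cannot be told apart in these sums.

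**Figure D5:**
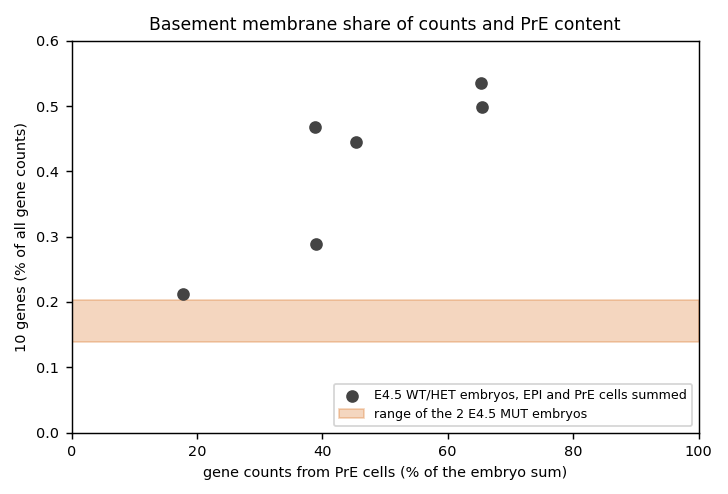
Share of all gene counts taken by the 10 genes in each E4.5 WT/HET embryo, EPI and PrE cells summed, against the share of its counts that came from PrE cells, with the range of the 2 E4.5 MUT embryos (0.139% to 0.204%) as a band. Control embryos run from 0.213% at 17.7% PrE counts to 0.535% at 65.2%, all above the band. The WT embryos, 5 and 6, have the lowest shares of the controls, and the others are HET.

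Other genes of matrix assembly were taken from lists. Of 30 genes for folding and export of collagen, 20 were tested in PrE against EPI, and 9 were higher, beside 5.2% of all genes tested. The list's median log2 difference was 1.40 and that of all genes tested -0.03. The 9 include P4hb, a subunit of prolyl 4-hydroxylase, Serpinh1, the collagen chaperone HSP47, and P4ha1, the catalytic subunit of the hydroxylase. Serpinh1 was at 506 CPM in PrE, 25.9 in EPI, 59.2 in E4.5 MUT and 0.0100 in E3.5 WT/HET (means). In E4.5 MUT against PrE, 6 of 24 tested genes of this list were lower, beside 2.07% of all genes (median log2 -1.54 against 0.054), led by the lysyl hydroxylase genes Plod3 (log2 -4.11 ± 0.51, adjusted p = 0.00249) and Plod2 (-4.47 ± 0.81, adjusted p = 0.0154) and by P4ha1 (-2.80 ± 0.43, adjusted p = 0.00712). At E3.5 Plod1 was higher in MUT and Plod2 and P3h1 were lower, of 18 tested, beside 3.2% and 2.98% of all genes.

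Among other matrix components Fn1, fibronectin, was highest in EPI, at 424 CPM in EPI, 44.6 in PrE, 31.2 in E4.5 MUT, 46.3 in E3.5 WT/HET and 2.05 in E3.5 MUT. It was lower in MUT at E3.5 (log2 -4.22 ± 0.86, adjusted p = 0.0130) and against EPI at E4.5 (-3.68 ± 0.36, adjusted p = 0.000546). Tinagl1, a matrix protein of the tubulointerstitial nephritis antigen family, was at 593 CPM in E4.5 MUT against 28.4 in EPI and 52.3 in PrE, higher than both (log2 4.46 ± 0.73 and 3.54 ± 0.51, adjusted p = 0.00874 and 0.00538). Fbln1, fibulin 1, was higher than EPI both in PrE and in E4.5 MUT. Of the 8 other laminin chains, Lama5 was lower in MUT at E3.5 (-1.69 ± 0.46, adjusted p = 0.0482).

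Of 18 laminin and collagen receptors, Itga6, the integrin α6 laminin receptor subunit, was higher in MUT at E3.5 (log2 0.96 ± 0.24, adjusted p = 0.0330) and at E4.5 against EPI (2.60 ± 0.48, adjusted p = 0.0155). Its mean was 132 CPM in E4.5 MUT, 22.9 in EPI and 20.8 in PrE. Itga3, integrin α3, went the other way, at 0 in E4.5 MUT, 19.2 CPM in EPI and 37.0 in PrE. Of the receptors tested at E3.5, 1 of 13 was higher in MUT and 0 lower, beside 3.2% and 2.98% of all genes. In E4.5 MUT against EPI 2 of 15 were higher and 1 lower, beside 2.3% and 2.62%. Against PrE 0 of 15 were called, beside 1.74% higher and 2.07% lower. Sdc4, syndecan 4, was at 1465 CPM in E4.5 MUT, 657 in PrE and 93.5 in EPI, and Sdc1 was at 0 in both MUT embryos. Of 23 genes of the dystroglycan complex and its glycosylation, 17 were tested in PrE against EPI, and 1, Gmppb, was higher in PrE (log2 1.499 ± 0.447, adjusted p = 0.0489), a share near the 5.2% of all genes. Ext1, a heparan sulfate polymerase needed for perlecan's chains, was lower in E4.5 MUT than in PrE and EPI (log2 -7.14 ± 1.12 and -6.61 ± 1.38, adjusted p = 0.00784 and 0.0259), with 45.9 CPM in PrE and 0.110 in MUT. Of 17 matrix proteases and inhibitors, Ctsl, cathepsin L, was at 4050.5 CPM in E4.5 MUT, 3308 in PrE and 383 in EPI, and Timp1 was at 0.941 in MUT against 51.8 in EPI. Of 14 integrin adaptors, Lims1 was higher in E4.5 MUT than in EPI and PrE (1.89 ± 0.38 and 2.32 ± 0.41, adjusted p = 0.0234 and 0.0147). Dab2, of the same list and also a PrE marker, was higher in MUT at E3.5 (2.68 ± 0.47, adjusted p = 0.00661). It was the only 1 of 7 tested PrE markers called at that stage, beside 3.2% of all genes called higher. The median log2 difference of those 7 markers was -0.29.

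The genes most like the mean of the 9 secreted members over the 25 embryo sums, by Pearson r of log2(CPM + 1) among 6008 genes of at least 20 CPM, were Pth1r (0.975), Cst3 (0.959), P4hb (0.959), Pga5 (0.948), H13 (0.936), Rhpn1 (0.932), Itm2b (0.929), Gpx3 (0.924), Sec61a1 (0.919) and Bag2 (0.913). Each of 6 embryos gave both an EPI and a PrE sum, so the points are not independent, and no p is given. Pth1r, the receptor for parathyroid hormone-related protein, was at 402 ± 199 CPM in PrE, 1.18 ± 2.78 in EPI and 62.4 ± 18.9 in E4.5 MUT. Of the members, Lama1 was nearest to Lamb1 (0.930), Col4a1 to Col4a2 (0.958), Hspg2 to Lama1 (0.892) and Sparc to Lamc1 (0.862), while Nid1 reached at most 0.145 with any other member.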

How the data were processed

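Single ICM cells were measured by Smart-seq2 without strand information. Per the labels, the authors deposited raw counts of read pairs per gene, made with STAR and HTSeq on mm10 per the submitters' processing notes, for 172 cells that passed their filters, and no molecular identifiers were used, so counting error is not covered in full. Of all read pairs, 32.3% mapped to several places, 8.65% overlapped several genes and 4.72% overlapped none, and all of these were set aside. The embryo of each cell came from the study's table of cells and not from the labels. Counts were summed per embryo and class and tested with edgeR 4.0.16 (TMM, its default low-count filter, quasi-likelihood test, Benjamini-Hochberg adjustment over all genes tested) in R 4.3.3, and p-values measure the spread between embryos. FPKM used exon lengths of an annotation in which 49412 of 49671 gene IDs were found. Intervals for a share of cells, used in the alternatives, were 95% exact binomial, the limit for a share at 0 is 3 counts of the total, and both cover counting error only. DESeq2 1.42.0 and limma 3.58.1 gave alternatives, as did other filters, WT controls alone and each embryo left out.

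EPI and PrE sums of 1 embryo are paired by design. The correlation of their deviations from the class means was 0.00876 to 0.0657 over the 6 embryos. All 10 members are named, and of every other list up to 3 genes per direction with the smallest adjusted p, the 10 genes most like the secreted members, and markers beside a result. Members and lists were chosen with earlier results of these data known. Some genes of the lists are not reported here.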

Additional observations from a re-analysis of the deposited data

Results flagged for a closer look

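In 3 of 39 sets of a gene in a group of 4 to 10 embryos, 1 embryo lay far from the others. Chance gives about 1 in 20 only for independent, normally spread values. Some sets hold values at 0 and some genes vary together, so the 3 cannot be set against that rate. Lama1 was at 3.74 CPM in E3.5 WT/HET embryo 16, where the other 6 were at 0.422 or less. Col4a1 was at 55.6 CPM in E3.5 MUT embryo 10, below the other 3, which had 69.01 or more. Col4a1 was at 11.4 CPM in the EPI cells of embryo 6, where the other 5 embryos had 2.83 or less.

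The MUT effect differed between E3.5 and E4.5, by the interaction term of edgeR's test, in 4 genes. On the log2 scale the effect at E4.5 less that at E3.5 was -3.20 for Col4a1, -2.58 for Col4a2 and -5.01 for Hspg2, and it was 2.49 for Dag1. The Hspg2 value depends on the prior count, since the E3.5 WT/HET embryos were at 0. With the WT embryos as the only controls, only Dag1 of these 4 genes was called. Stage and plate cannot be told apart in these terms.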

How the results depend on the processing

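The comparisons of E3.5 MUT with WT/HET and of the stages within WT/HET kept their count of members called within 1.5 times in every alternative run. With the WT embryos as the only controls, members called fell from 7 to 1 in PrE against EPI, from 3 to 0 in MUT against EPI, from 8 to 1 in MUT against PrE, from 6 to 0 in MUT against whole ICMs and from 4 to 1 in the stage interaction; at E4.5 this leaves 2 control embryos, and over all genes calls fell from 508 higher and 450 lower to 2 and 1 in PrE against EPI, from 298 and 339 to 36 and 12 in MUT against EPI, from 213 and 253 to 18 and 9 against PrE, and from 437 and 602 to 19 and 6 against whole ICMs. Over all genes the interaction then called 272 higher and 198 lower, in place of 445 and 451. The share of counts in whole E4.5 WT/HET ICMs was then 0.251% in place of 0.408%. DESeq2 called 5 members in MUT against EPI and 7 in the interaction, and over all genes it called 563 higher and 1117 lower in the first and 740 and 1063 in the second, against 445 and 451 in the interaction by edgeR. Cells weighted equally (limma) gave 5 in MUT against EPI, 2 against whole ICMs, 4 within MUT between stages and 2 in the interaction. Fitting EPI, PrE and MUT as 3 groups gave 7 in MUT against EPI and 5 in MUT against PrE. That fit called 360 of 13997 genes higher and 293 lower against EPI, and 292 and 261 against PrE. Leaving out 1 embryo gave 1 to 3 in MUT against EPI, 3 to 8 against PrE, 3 to 6 against whole ICMs, 1 to 2 within MUT and 1 to 7 in the interaction. Calls over all genes also shifted when 1 embryo was left out. The cause of these shifts was not tested. The pairing of EPI and PrE by embryo, as a replicate block, called 7 members, as without it, and changed no other call among members.

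Directions turned only in differences that had not passed the test. With 1 embryo left out at E3.5, Lamb1 ran from -1.04 (without MUT embryo 12) to 0.77, and Nid1 from -0.57 to 0.023 (0.013 without MUT embryo 17). Nid1 in PrE against EPI was -0.034 with WT controls, and Hspg2 in MUT against EPI ran from -0.32 (without embryo 8) to 1.06. Col4a1 against whole ICMs was 0.97 with cells weighted equally and 0.40 with WT controls. With cells weighted equally Dag1 between WT/HET stages was -0.14, and within MUT Col4a1 was -0.53, Col4a2 -1.43 and Nid2 -0.23, with Col4a2 at -0.16 to 0.97 when 1 embryo was left out. The Lamc1 interaction, -0.05, was 0.081 with DESeq2, 0.019 with its size factors, 0.80 with cells weighted equally, 0.28 with WT controls, and -0.47 to 0.99 with 1 embryo left out. Of the other single-gene values, 1182 kept direction and side of the threshold, 35 newly passed and 100 no longer passed. Of the alternative shares of cells, 129 stayed within their interval and 21 moved beyond it. Leaving out 1 E4.5 MUT cell, chosen after seeing the data, is given in the report. With 2 E4.5 MUT embryos, small differences were not detectable.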
